A study of Mus musculus with 24 samples.

Results

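The data described here follow mouse embryos that each grew from a single blastomere, from the morula to the blastocyst. They comprise 12 of the 24 single-embryo libraries of the series: 6 split morulae and 6 split blastocysts, chosen by their labels. All embryos came from ICR mice by in vitro fertilization and were kept at 37 °C under 6% CO2 and 5% O2. Embryos to be split were taken at the late 2-cell stage once cleavage was complete, placed in G-PGD biopsy medium and divided by micromanipulation, and each blastomere then grew alone in a modified sodium hyaluronate gel. The 2 embryos from one 2-cell embryo are sisters. Each stage holds 3 sister pairs, from different 2-cell embryos at the 2 stages, so the transition compares different individuals. Intact embryos, which were neither divided nor, so far as the labels say, exposed to the biopsy medium, were cultured alongside: 5 morulae and 3 blastocysts serve as the comparison, and 4 intact 8-cell embryos complete the series. Polyadenylated RNA of each whole embryo was copied with the Smart-seq2 protocol, which amplifies full-length cDNA from an oligo(dT) primer, so every value is a sum over all cells of an embryo. In such bulk samples a change in the share of a cell type and a change in RNA per cell cannot be told apart. The labels give no embryo age, cell number or blastocyst grade.

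During this transition the compacted morula forms an outer epithelium, the trophectoderm, around an inner cell mass that separates into epiblast and primitive endoderm, and fluid pumped across the epithelium opens the blastocoel. Transcripts typical of cleavage are cleared while metabolism shifts from pyruvate toward glucose. A 2-cell blastomere is known to be able to form a blastocyst by itself, usually with fewer cells than an intact one.

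Libraries held 14146833 to 18852776 counts in split morulae and 13439059 to 25228658 in split blastocysts. Counts of sisters were summed, which left 3 pair sums per stage as replicates, and levels below are CPM, each gene's count scaled to a common library total, of the pair sums after edgeR's TMM scaling unless embryos are named. After thinning every library to the same depth, 10105 to 11960 genes had a count in split morulae and 12292 to 14020 in split blastocysts. Those ranges do not overlap, against 12379 to 13265 in intact morulae and 14029 to 15516 in intact blastocysts. Y-linked transcripts and Xist gave sisters the same sex in all 6 pairs. Of the morula pairs 1 was female and 2 were male, and of the blastocyst pairs 2 were female and 1 was male, so that sex and stage were not balanced and the part of sex in the results was not tested. Summed levels of markers of other cells, over every listed member and as CPM of the library's own total, overlapped between the stages. In single embryos the 16 cumulus and granulosa markers ran from 2.11 to 60.6 in split morulae and 4.83 to 28.9 in split blastocysts. The 14 blood markers ran from 11.7 to 211 in split morulae and 14.6 to 63.4 in split blastocysts, the 14 sperm markers from 5.72 to 35.5 in split morulae and 18.1 to 60.2 in split blastocysts, and the 12 fibroblast markers from 0 to 9.72 in split morulae and 0.694 to 11.1 in split blastocysts. All 4 sums were highest among split morulae in an embryo of pair 3. At 0 in every split embryo were 8 cumulus markers (among them Fshr, Amh and Foxl2), 6 sperm markers (Tnp1 and Akap4 among them), 4 blood markers (Ptprc, Lyz2, Tyrobp and Csf1r) and 6 fibroblast markers (Col1a2, Col3a1, Dcn, Lum, Prrx1 and Acta2). Others were present: Amhr2 reached 60.6 and 27.2, Odf2 32.1 and 50.3, Hba-a1 110.3 and 3.25, Cd74 71.8 and 24.3 and Cd68 14.3 and 52.4 CPM in the highest split morula and blastocyst. By edgeR none of the 2 cumulus, 7 sperm, 8 blood and 3 fibroblast genes tested was called, with 0, 3, 2 and 1 at an unadjusted p under 0.05, and DESeq2 called 0, 1, 1 and 0. Their part in the results was not tested.

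Morula pair 3 stood apart from the other pairs before any stage comparison. Over the 3711 genes whose log2 CPM averaged 5 or more, its embryos correlated with the mean of the intact morulae at r = 0.765 and 0.754, where the other 4 split morulae reached 0.878 to 0.921. Compared with those 4, they lay nearer to the intact 8-cell mean (0.662 and 0.675, against 0.582 to 0.608) and further from the intact blastocyst mean (0.5655 and 0.5345, against 0.706 to 0.770). Both embryos of pair 3 still lay nearest to the intact morula mean. The split blastocysts formed a tighter group, at 0.783 to 0.834 with intact morulae and 0.8009 to 0.8286 with intact blastocysts. Some lay nearer to the intact morula than to the intact blastocyst mean. These were blastomere 2 of pair 1 (0.8335 against 0.8286) and both embryos of pair 2 (0.8269 against 0.8009 and 0.8158 against 0.8151). These coefficients run across genes and describe the libraries without a test. One embryo of morula pair 3, blastomere 1, also had the fewest genes with a count (10372). The Obox6 levels of the pair, 2207 and 1861 CPM, lay within the 1697 to 2800 CPM of intact 8-cell embryos, and its Nanog levels, 11.5 and 33.1 CPM, within 8.80 to 89.3, where the other split morulae had 340.5 to 507 and 197 to 541 CPM. Other genes of the pair lay above the intact 8-cell range. Krt18 read 340 and 95.5 CPM, against 1.84 to 13.9, and Igf2r 1330 and 819 CPM, against 182 to 284. Because the pair stood apart, counts of called list members are also given without this pair where leaving it out changes them.

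**Figure D1:**
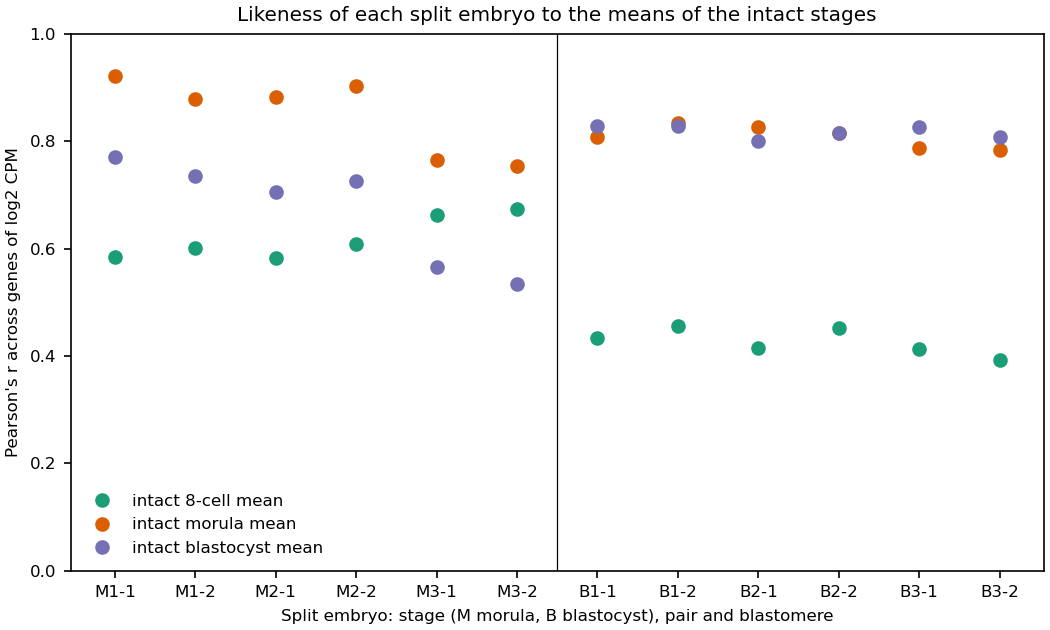
Pearson's r (vertical axis) across genes between each split embryo (horizontal axis, stage letter, pair and blastomere) and the mean of the intact 8-cell, morula and blastocyst embryos, on log2 CPM. Both embryos of morula pair 3 sit at 0.765 and 0.754 with intact morulae, below the other 4 split morulae. With the same mean the 6 split blastocysts lie between 0.783 and 0.834.

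Sisters were closer to each other, on average, than embryos of different pairs at both stages. The mean distance, taken as 1 minus Pearson's r of log2 CPM, was 0.190 between sister morulae and 0.216 between morulae of different pairs. Among blastocysts it was 0.112 between sisters and 0.121 between pairs. The distances of the 3 sister pairs were 0.175, 0.175 and 0.221 in morulae and 0.0879, 0.156 and 0.0908 in blastocysts. The sisters of morula pair 3 and of blastocyst pair 2 were thus further apart than embryos of different pairs on average. In an exact one-sided permutation test over all 15 ways of pairing the 6 embryos, each stage gave p = 0.0667, the smallest value 15 pairings allow. Over both stages jointly the exact permutation p was 0.00444, also the smallest possible.

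From split morula to split blastocyst, 662 of 15875 genes tested were called at an adjusted p under 0.05, which is 4.17% of them. Of these, 194 (1.22%) were higher in blastocysts and 468 (2.95%) were lower. The test was edgeR's quasi-likelihood test with Benjamini-Hochberg adjustment on 18 units, the 6 pair sums and the 12 intact embryos, and 3213 genes had an unadjusted p under 0.05. The median fold of the called genes was 3.63 for those that rose and 2.93 for those that fell, while the median log2 change of all genes tested was 0.05. The pair sums of the 2 stages did not overlap in 650 of the 662 called genes, against 27.4% of all genes tested. Where called genes are described below as separate between the stages, this follows closely from their call and adds no support to it. Without morula pair 3 the counts were 112 higher and 310 lower. Leaving out blastocyst pair 1 gave 71 and 250, and leaving out blastocyst pair 3 gave 72 and 220. The split between rises and falls also moved with the tool: DESeq2 called 801 higher and 896 lower, and limma-voom on the single embryos with sisters as a random effect called 2125 higher and 778 lower.

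**Figure D2:**
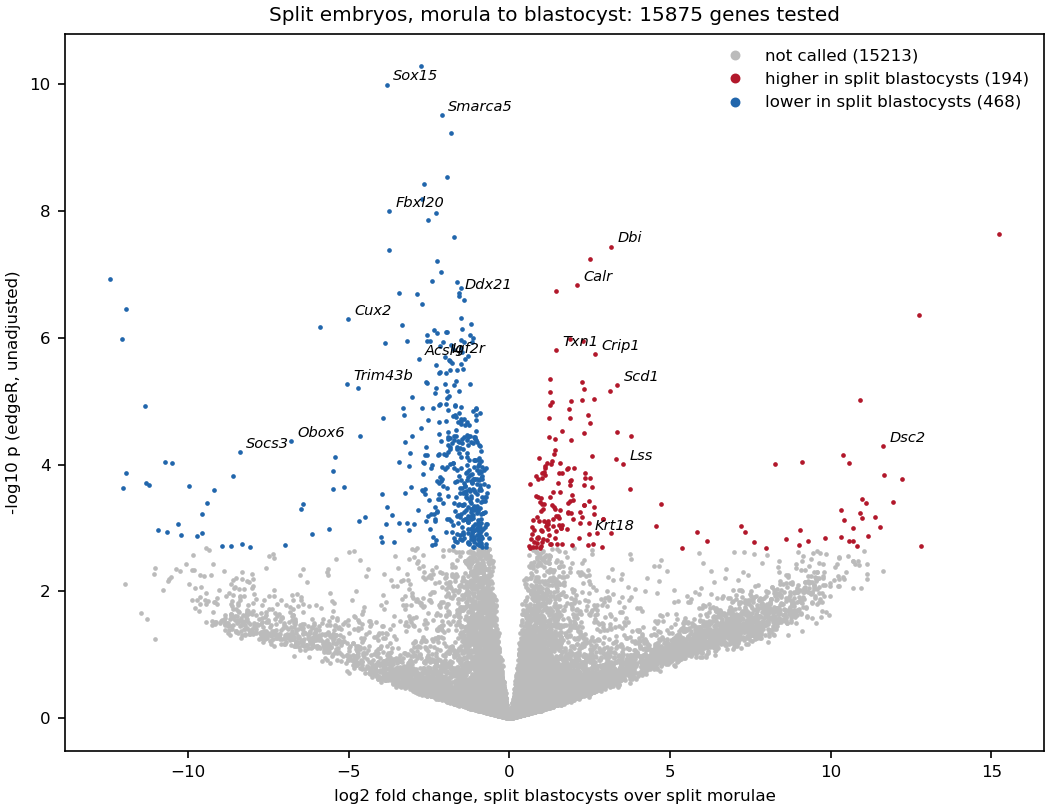
Log2 fold change of each of 15875 genes, split blastocysts over split morulae (horizontal axis), against the negative log10 of the unadjusted edgeR p (vertical axis). Each point is a gene; red points are the 194 genes called higher and blue points the 468 called lower, and Sox15 and Smarca5 stand near the top among the falls.

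Of the 101 called genes that are named by rule, 58 to 87 remained called when any one pair was left out. All kept their direction, but the pair sums of 650 of the 662 called genes did not overlap. Leaving out a pair could therefore hardly reverse them. Without morula pair 3 the call ended for 29, among them Aqp9, Arpc2, Atp1b3, Atp5g2, Ccne1, Cdc6, Cited1, Cs, Ctsz, Cyb5r3, Ebp, Gss, H2ac8, Hexa, Hsp90b1, Kpna2, Krt18, Mpc1, mt-Nd2, Pde4dip, S100a11, Slc25a13, Suclg1, Taok1, Tmsb10, Tnfsf13b, Tuba1b and Zfp951. Of the 101, 58 were called without blastocyst pair 3 and 67 without blastocyst pair 1.

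Obox6 had the largest fall among the called genes that averaged over 3 in log2 CPM and did not overlap between stages, and Trim43b the third largest. Obox6, a homeobox gene of the Obox family transcribed after genome activation, read 367, 474 and 2041 CPM in morula pairs 1, 2 and 3 and 19.7, 3.57 and 2.56 CPM in the blastocyst pairs (log2 change -6.80 ± 1.16, SE; adjusted p = 0.00386). Trim43b, of a tripartite-motif family expressed in cleavage embryos, read 385, 389 and 1371 CPM and then 15.3, 43.8 and 5.16 CPM (log2 change -5.06 ± 0.74, SE; adjusted p = 0.00101). In both genes morula pair 3 was the highest of all pairs by a wide margin. That no blastocyst pair reached any morula pair follows from the rule that picked them. Without that pair the log2 changes were -5.61 (adjusted p = 0.0120) for Obox6 and -4.18 (adjusted p = 0.00334) for Trim43b. The list of cleavage and genome activation genes had 19 members tested of 35. Of these 7 fell and none rose (Obox6, Trim43a, Trim43b, Trim43c, Pramel4, Pramel7 and Alppl2), the median log2 change was -1.71, against 2.95% of all genes that fell, and 8 of 20 tested fell without morula pair 3. Alppl2, an alkaline phosphatase, was even among morula pairs, at 1447, 1506 and 1459 CPM, and among blastocyst pairs, at 472, 491 and 380.5 CPM (log2 change -1.71 ± 0.20, SE; adjusted p = 3.36e-05). Trim43a, Trim43b and Trim43c are close copies, and how reads shared between them were counted is not given in the sources used here. The Zscan4 genes were too low to be tested at these stages.

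Sox15, an SRY-box factor of early embryos, had the smallest adjusted p of the 12 leading falls. It read 258, 197 and 481 CPM in the morula pairs and 15.4, 32.6 and 17.9 in the blastocyst pairs (log2 change -3.83 ± 0.33, SE; adjusted p = 8.09e-07), a 14.2-fold drop. Fbxl20, an F-box protein of ubiquitin ligases, went from 284, 195 and 383 to 10.5, 35.7 and 18.2 CPM (log2 change -3.74 ± 0.41, SE; adjusted p = 1.89e-05). Separation of the stages was part of the rule that picked both genes. In each, no blastocyst pair came near the lowest morula pair. Tfrc, the transferrin receptor that imports iron, read 132, 248 and 849 CPM in morulae and 42.3, 41.2 and 36.7 in blastocysts (log2 change -3.35 ± 0.46, SE; adjusted p = 0.000284). Slc12a2, a sodium, potassium and chloride cotransporter, read 104, 121 and 286 CPM in morulae and 15.8, 15.9 and 3.11 CPM in blastocysts (log2 change -3.88 ± 0.55, SE; adjusted p = 0.000350). Dnajb9, a chaperone of the endoplasmic reticulum, read 176, 205 and 762 CPM in morulae and 38.6, 31.4 and 36.3 CPM in blastocysts (log2 change -3.43 ± 0.44, SE; adjusted p = 0.000126). In these 3 genes the blastocyst pairs were low throughout and morula pair 3 was the highest of the morula pairs. The further leading falls were Tnfsf13b, Cux2, Btbd18, Zfp951 and Sp110, with log2 changes from -5.49 to -3.33. Cux2, a homeodomain factor, read 30.5, 41.3 and 132 CPM in the morula pairs and 2.56, 3.35 and 0.410 CPM in the blastocyst pairs, with morula pair 3 again highest. Sp110, a nuclear body protein, read 44.2, 38.3 and 104 CPM in morulae and 6.502, 10.03 and 2.07 CPM in blastocysts, and Btbd18 12.6, 43.1 and 55.4 and then 3.29, 0.123 and 0.819 CPM. Tnfsf13b, the cytokine BAFF, and Zfp951, a zinc finger gene, were also highest in morula pair 3. Tnfsf13b read 16.0, 34.0 and 116 CPM in the morula pairs and 2.05, 0 and 1.60 CPM in the blastocyst pairs, and Zfp951 23.9, 56.2 and 171 and then 0.943, 8.52 and 1.70 CPM.

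**Figure D3:**
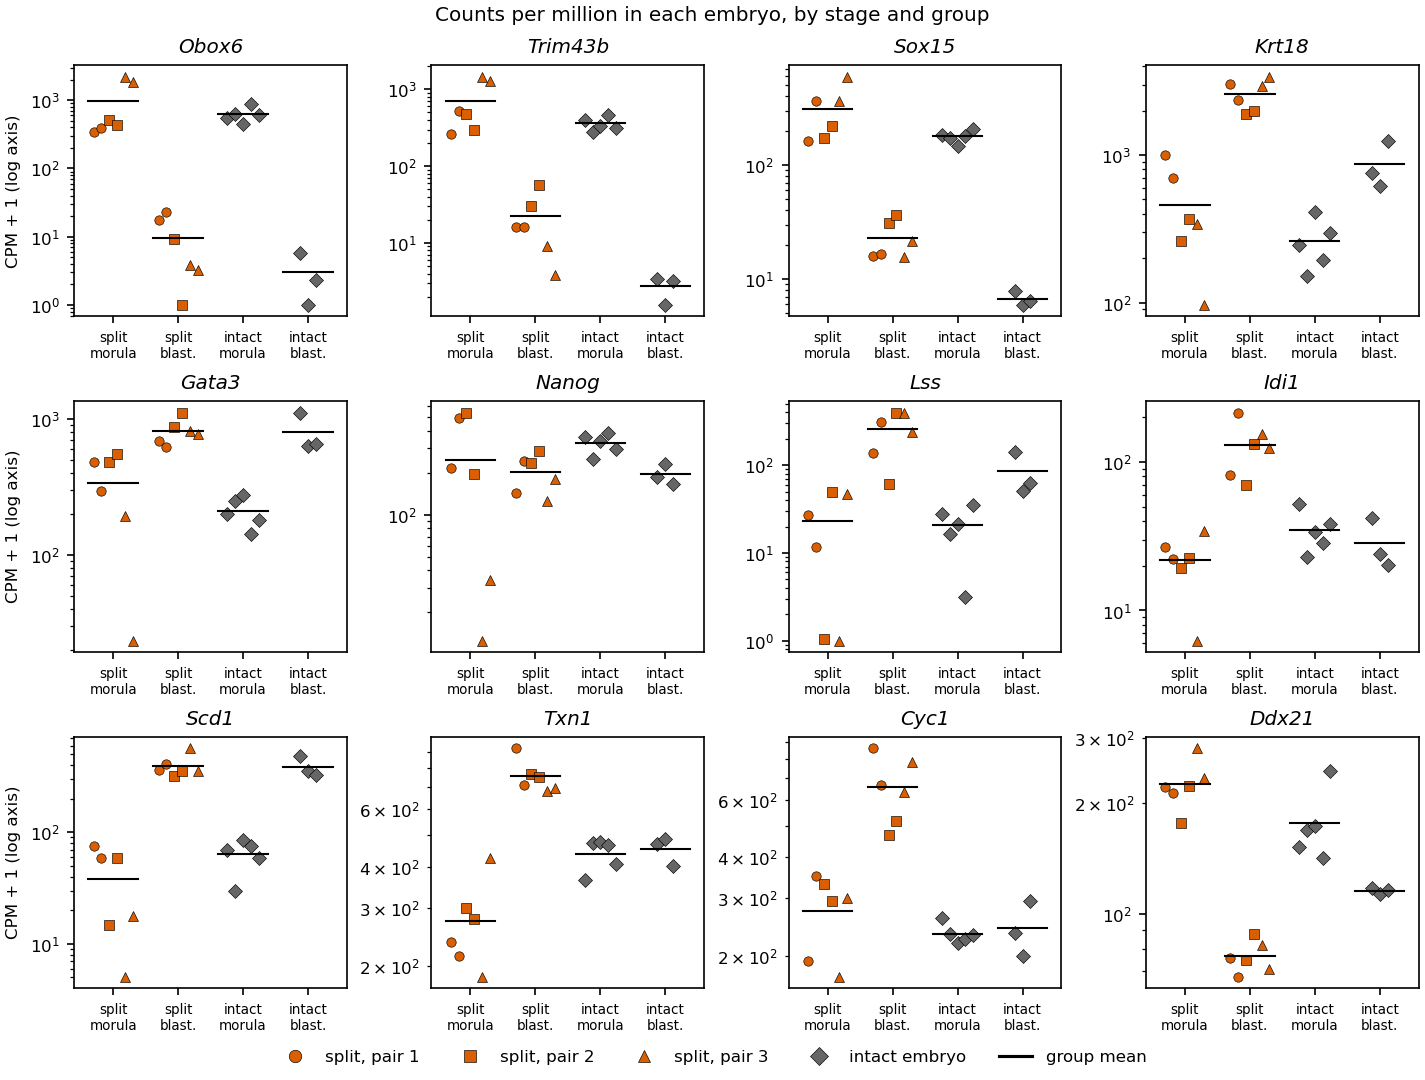
CPM plus 1 on a log axis in each embryo for 12 genes, with split embryos in orange (marker shape gives the pair), intact embryos in grey and a black bar at the group mean. Obox6, Trim43b and Sox15 drop in every split blastocyst, Lss, Idi1, Scd1, Txn1 and Cyc1 have higher means in split blastocysts, and the 2 embryos of morula pair 3 (triangles) are highest for Obox6 and lowest for Nanog.

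The 12 leading rises included AA467197, Lss, Scd1, Add1, Dbi, Cyb5r3, Slc25a13, Tuba1b, Pde4dip, Smim14 and Crip1, with log2 changes from 2.67 to 3.75. Scd1, the stearoyl-CoA desaturase that makes monounsaturated fatty acids, read 67.8, 35.7 and 10.5 CPM in the morula pairs and 388, 336 and 447 in the blastocyst pairs (log2 change 3.36 ± 0.54, SE; adjusted p = 0.00102). Dbi, an acyl-CoA binding protein, read 37.3, 24.8 and 21.6 CPM in morulae and 276, 207 and 268 CPM in blastocysts (log2 change 3.16 ± 0.38, SE; adjusted p = 4.47e-05). Crip1, a small LIM-domain protein, read 33.0, 33.8 and 31.9 CPM in morulae and 215, 185 and 230.5 CPM in blastocysts (log2 change 2.67 ± 0.41, SE; adjusted p = 0.000458). For all 3 the groups lay far apart, and for Dbi and Crip1 pairs within a stage differed little. Add1, an adducin that links spectrin to actin, read 4.40, 3.27 and 6.96 CPM in morulae and 47.9, 48.1 and 51.6 CPM in blastocysts (log2 change 3.33 ± 0.63, SE; adjusted p = 0.00332). Cyb5r3, a cytochrome b5 reductase that supplies electrons to desaturases and sterol enzymes, read 12.8, 30.6 and 18.9 CPM in morulae and 154, 140.1 and 261 CPM in blastocysts, and its call (adjusted p = 0.0345) ended when any single pair was left out. Pde4dip, a centrosomal scaffold, read 2.70, 2.20 and 0.441 CPM and then 9.45, 18.9 and 11.1 CPM, and its call also ended without any one pair. AA467197 had the largest fitted rise of the 12, from 12.1, 6.75 and 0.911 to 74.8, 50.6 and 139.9 CPM (log2 change 3.75 ± 0.85, SE; adjusted p = 0.0115). Slc25a13, a mitochondrial aspartate and glutamate carrier, read 9.502, 4.89 and 4.58 CPM in morulae and 56.8, 32.4 and 55.0 CPM in blastocysts. Tuba1b, an alpha-tubulin, read 26.4, 26.9 and 8.17 CPM and then 171, 98.9 and 196 CPM, with morula pair 3 lowest. Stages that do not overlap were a condition for all 12 leading rises. AA467197 was also lowest in morula pair 3.

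Of 27 members tested of the 28 listed for sterol synthesis and uptake, 8 rose in split blastocysts and none fell, against the 1.22% of all genes that rose, and the list's median log2 change was 1.82. The count was 6 without morula pair 3 and 15 with DESeq2. Lss, lanosterol synthase, read 19.5, 24.3 and 22.9 CPM in the morula pairs and 228, 244 and 303 in the blastocyst pairs (log2 change 3.54 ± 0.72, SE; adjusted p = 0.00651). Single morulae were uneven for Lss: the sisters read 26.3 and 10.7 CPM in pair 1, 0.0530 and 49.0 in pair 2, and 0 and 45.3 in pair 3. One sister of each of pairs 2 and 3 was therefore at or near 0, whereas every blastocyst had at least 60.5 CPM. Idi1, isopentenyl diphosphate isomerase, had pair sums that were even within each stage, at 23.98, 20.1 and 19.3 CPM in morulae and 152, 102 and 137 CPM in blastocysts (log2 change 2.62 ± 0.45, SE; adjusted p = 0.00150). Cyp51, lanosterol demethylase, read 41.1, 54.5 and 36.0 CPM in morulae and 258, 201 and 259 CPM in blastocysts (log2 change 2.45 ± 0.44, SE; adjusted p = 0.00213). Pmvk, phosphomevalonate kinase, read 58.8, 70.5 and 13.4 CPM in morulae and 240.4, 219 and 254 CPM in blastocysts (log2 change 2.32 ± 0.52, SE; adjusted p = 0.0105). In each of these 3 genes the lowest blastocyst pair was above the highest morula pair, and single embryos ranged for Idi1 from 5.25 to 33.0 (median 21.3) CPM in morulae and from 68.6 to 214 (median 127) in blastocysts. The further rises were Fdft1 (squalene synthase, 1.88 ± 0.34), Ebp (sterol isomerase, 1.88 ± 0.44), Msmo1 (methylsterol monooxygenase, 1.82 ± 0.43) and Sqle (squalene epoxidase, 1.65 ± 0.35), each a log2 change with its SE. Ebp lies on the X chromosome. Hmgcs1, an early enzyme of the mevalonate pathway, did not pass and read 92.6, 237 and 128 CPM in morulae and 385, 117 and 168 CPM in blastocysts (adjusted p = 0.454). Mvd, mevalonate diphosphate decarboxylase, read 19.2, 37.4 and 1.76 CPM in morulae and 149.5, 176 and 216 CPM in blastocysts (log2 change 3.21 ± 1.04, adjusted p = 0.0995). Insig1, which holds the SREBP machinery in the endoplasmic reticulum, read 615, 514 and 141 CPM in morulae and 1590, 1661 and 2041 CPM in blastocysts (adjusted p = 0.132), and Srebf2, which encodes the main sterol SREBP, 17.2, 18.998 and 11.9 CPM in morulae and 74.2, 71.1 and 74.5 CPM in blastocysts (adjusted p = 0.0908). Of the 27, 23 had a positive and 4 a negative log2 change.

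Sterol genes are known targets of the SREBP factors, which bind sterol elements together with NF-Y at CCAAT boxes, so the promoters of the 8 called genes were read from RefSeq's table (250 bases before to 50 after a start site, build GRCm38.p6, whereas the counts were made on GRCm39). The table held 6 of the 8. The letters TCACNCCAC, a common form of the sterol element, occurred on either strand in 0 of the 6 genes and in 1.24% of all 32851 promoters, and its narrower form TCACCCCAC in 0 and 0.551%. The loose form TCACNNNAC, which includes both, occurred in 1 of 6 (Msmo1), against 11.2% of promoters. Of the 14 other listed sterol genes with a promoter, none of them called, 1 (Hmgcs1) held TCACNCCAC, in its narrower form. The loose form occurred in 5 of these 14 (Dhcr7, Hmgcs1, Hsd17b7, Insig1 and Nsdhl). CCAAT occurred on one strand or the other in 6 of the 7 promoters that the table holds for the 6 genes (the second Pmvk promoter has none), against 37.4% of all promoters. It also occurred in 12 of the 19 promoters of the 14 other listed sterol genes in the table, none of which was called. The windows are short, and a match or its absence says only which letters are there. Shown 5′ to 3′ on the gene's strand, with CCAAT or its reverse complement in capitals, are Lss (chr10:76531355-76531654, plus strand), Idi1 (chr13:8885356-8885655, plus strand), Cyp51 (chr5:4104648-4104947, minus strand) and Ebp (chrX:8193463-8193762, minus strand), chosen because their transcripts rose and their pairs separated by stage.
Lss: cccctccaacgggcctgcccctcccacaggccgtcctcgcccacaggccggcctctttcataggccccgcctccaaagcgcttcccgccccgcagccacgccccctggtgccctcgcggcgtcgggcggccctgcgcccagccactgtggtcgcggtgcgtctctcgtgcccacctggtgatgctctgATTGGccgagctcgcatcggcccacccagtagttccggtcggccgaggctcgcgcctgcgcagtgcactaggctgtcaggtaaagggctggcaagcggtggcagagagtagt
Idi1: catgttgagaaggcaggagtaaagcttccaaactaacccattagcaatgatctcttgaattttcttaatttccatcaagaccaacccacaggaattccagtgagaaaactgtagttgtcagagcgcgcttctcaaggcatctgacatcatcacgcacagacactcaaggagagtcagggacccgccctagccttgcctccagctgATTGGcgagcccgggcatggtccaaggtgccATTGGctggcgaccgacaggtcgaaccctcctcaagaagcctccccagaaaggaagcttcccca
Cyp51: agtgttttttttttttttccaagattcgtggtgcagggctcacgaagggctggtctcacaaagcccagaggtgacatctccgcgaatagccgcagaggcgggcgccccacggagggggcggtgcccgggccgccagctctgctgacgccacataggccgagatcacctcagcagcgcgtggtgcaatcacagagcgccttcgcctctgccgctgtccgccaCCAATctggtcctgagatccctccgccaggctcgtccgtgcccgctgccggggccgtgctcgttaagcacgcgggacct
Ebp: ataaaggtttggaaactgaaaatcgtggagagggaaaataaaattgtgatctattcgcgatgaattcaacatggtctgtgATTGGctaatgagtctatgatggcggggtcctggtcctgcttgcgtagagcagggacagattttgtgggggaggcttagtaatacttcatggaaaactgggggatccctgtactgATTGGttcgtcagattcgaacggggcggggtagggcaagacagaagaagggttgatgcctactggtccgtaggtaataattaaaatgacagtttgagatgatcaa

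Of 22 members of the fatty acid list tested, 4 rose (Scd1, Fasn, Acly and Tecr) and 1 fell (Acsl4), with a median log2 change of 1.41, against 1.22% of all genes that rose and 2.95% that fell, and 3 rose without morula pair 3. Fasn, fatty acid synthase, read 23.9, 41.1 and 34.5 CPM in the morula pairs and 163, 154 and 191 in the blastocyst pairs (log2 change 2.35 ± 0.51, SE; adjusted p = 0.00786). Acly, which makes cytosolic acetyl-CoA from citrate, read 127, 65.5 and 86.1 CPM in morulae and 247, 319.7 and 292 CPM in blastocysts (log2 change 1.63 ± 0.31, SE; adjusted p = 0.00317). Neither gene overlapped between the stages. Acsl4, a ligase that activates long polyunsaturated fatty acids, went the other way, from 909.8, 897 and 1500 to 158, 143 and 166 CPM (log2 change -2.83 ± 0.42, SE; adjusted p = 0.000528), a 7.09-fold fall.

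Of 29 members of the oxidative stress list tested, 7 rose (Gss, Txn1, Sod2, Gpx4, Prdx2, Mt1 and Prdx1) and none fell, with a median log2 change of 0.89, against 1.22% of all genes that rose, and 4 rose without morula pair 3. Txn1, thioredoxin, read 228, 291 and 306 CPM in the morula pairs and 815, 752 and 689 in the blastocyst pairs (log2 change 1.45 ± 0.22, SE; adjusted p = 0.000409). Sod2, the mitochondrial superoxide dismutase, read 540.4, 599 and 281 CPM in morulae and 1290, 951 and 1198 CPM in blastocysts (log2 change 1.28 ± 0.22, SE; adjusted p = 0.00171). Gpx4, which reduces lipid peroxides, read 284, 302 and 202 CPM in morulae and 668, 565 and 618 CPM in blastocysts (log2 change 1.23 ± 0.24, SE; adjusted p = 0.00356). The stages did not overlap for any of the 3.

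Of 83 nuclear genes of the respiratory chain and ATP synthase tested, 16 rose and none fell, against 1.22% of all genes that rose, and the median log2 change was 0.52. The count was 7 without morula pair 3, and DESeq2 called 31 higher and 1 lower. Cyc1, cytochrome c1 of complex III, read 267, 317 and 237 CPM in the morula pairs and 759.5, 489 and 713 in the blastocyst pairs (log2 change 1.26 ± 0.21, SE; adjusted p = 0.000900). Sdhc, a membrane anchor of complex II, read 41.4, 46.4 and 22.1 CPM in morulae and 172, 93.5 and 147 CPM in blastocysts (log2 change 1.91 ± 0.33, SE; adjusted p = 0.00153). Atp5e, a subunit of ATP synthase, read 145, 135 and 129 CPM in morulae and 365, 304 and 324 CPM in blastocysts (log2 change 1.28 ± 0.22, SE; adjusted p = 0.00121). All 3 separated the stages, and the 16 log2 changes ranged from 0.60 (Atp5b) to 1.91 (Sdhc). Of the 13 proteins encoded by mitochondrial DNA, 2 fell and none rose, which is 15.4% against 2.95% of all genes that fell. The list's median log2 change was 0.05, like that of all genes, and 7 members had a positive and 6 a negative change. mt-Cytb, cytochrome b, read 19438, 16754 and 15984 CPM and then 6989, 6483 and 4742 CPM (log2 change -1.52 ± 0.24, SE; adjusted p = 0.000587), and mt-Nd2, whose call ended without morula pair 3, changed by -0.95 ± 0.25. The counts in these 13 genes were 1.80% to 3.19% of a library in split morulae and 0.841% to 2.34% in split blastocysts, against 2.69% to 5.06% in intact morulae and 3.47% to 4.85% in intact blastocysts. Around pyruvate, 2 of 23 members of the TCA list rose (Cs, citrate synthase, and Suclg1) and 2 fell (Mpc1 and Mpc2, the mitochondrial pyruvate carrier), against 4.17% of all genes called in either direction. Without morula pair 3 the calls of Cs, Suclg1 and Mpc1 ended, and the list had 1 rise and 1 fall. Mpc2 read 202, 253 and 503 CPM in morulae and 129.7, 119.6 and 115 CPM in blastocysts (log2 change -1.39 ± 0.26, SE; adjusted p = 0.00262). Of 25 glycolysis genes, 2 rose (8%, against 1.22% of all genes that rose), Eno1 and Eno1b, at log2 changes of 2.25 ± 0.39 and 2.35 ± 0.51. They are near-identical copies of enolase whose reads the counting could split, so they are uncertain as separate results.

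Of 35 tested members of the integrated and unfolded protein stress list, 6 rose (Calr, Hsp90b1, Pdia6, Atf4, Hspa5 and Pdia4) and 2 fell (Dnajb9 and Psat1), with a median log2 change of 0.35, against 4.17% of all genes called. Without morula pair 3 the counts were 4 and 1. Calr, the calcium-binding chaperone calreticulin, read 197, 115 and 160.4 CPM in the morula pairs and 700.4, 591 and 733 in the blastocyst pairs (log2 change 2.10 ± 0.27, SE; adjusted p = 0.000113). Pdia6, a disulfide isomerase, read 97.0, 141 and 77.4 CPM in morulae and 459, 270.1 and 429 CPM in blastocysts (log2 change 1.88 ± 0.28, SE; adjusted p = 0.000347). Hspa5, the chaperone BiP, read 497, 302 and 444 CPM in morulae and 1061, 833 and 1190 CPM in blastocysts (log2 change 1.31 ± 0.23, SE; adjusted p = 0.00159). Each was higher in all 3 blastocyst pairs. Atf4 encodes the factor that drives the integrated response and rose by 1.36 ± 0.34 on the log2 scale. In the cytosolic heat shock list of 24, Fkbp4 rose (1.23) and Hspa8 (-1.38), Stip1 (-1.31) and Hsph1 (-1.13) fell, on the log2 scale. That is 16.7% of the list called, against 4.17% of all genes, and without morula pair 3, 1 rose and 4 fell. Hspa8, the constitutive Hsc70, read 5687, 5586 and 3448 CPM in morulae and 1472, 2215 and 1974 CPM in blastocysts (log2 change -1.38 ± 0.21, SE; adjusted p = 0.000520). Of 30 p53 targets tested, Ei24 (-2.18) and Tigar (-0.90) fell and none rose, which is 6.67% of the list called against 4.17% of all genes. Cdkn1a, the cell cycle inhibitor p21, read 116, 146 and 402 CPM in morulae and 29.9, 97.8 and 93.9 CPM in blastocysts and did not pass (adjusted p = 0.112). Of 28 apoptosis genes 1 was called (3.57%, near the 4.17% of all genes). It was Mcl1, an inhibitor of apoptosis that fell by 1.06 on the log2 scale (SE 0.23).

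Of 50 ribosome biogenesis genes tested, 14 fell and none rose, against the 2.95% of all genes that fell, and the median log2 change was -0.52, and 10 fell without morula pair 3. Ddx21, a nucleolar helicase, read 219, 201 and 258 CPM in the morula pairs and 70.7, 80.3 and 74.6 in the blastocyst pairs (log2 change -1.59 ± 0.21, SE; adjusted p = 0.000126). Rrn3, an initiation factor of RNA polymerase I, read 759, 766 and 984 CPM in morulae and 285, 351 and 304 CPM in blastocysts (log2 change -1.42 ± 0.19, SE; adjusted p = 0.000143). Nolc1, a nucleolar phosphoprotein, read 449, 297 and 515 CPM in morulae and 109.8, 172 and 122 CPM in blastocysts (log2 change -1.65 ± 0.26, SE; adjusted p = 0.000692). Both Ddx21 and Rrn3 were even within stages, and none of the 3 overlapped. Of 34 translation factors, 6 fell (Eif5, Eif4e, Eif4g2, Eif3a, Eif6 and Eif5b) and none rose, which is 17.6% against 2.95% of all genes that fell. Eif4e, the cap-binding protein, read 776, 797 and 1141 CPM in morulae and 328, 477 and 298 CPM in blastocysts (log2 change -1.30 ± 0.20, SE; adjusted p = 0.000494). Of the 85 cytosolic ribosomal proteins only Rpl41 was called, lower in blastocysts by edgeR's test (1.18%, against 2.95% of all genes that fell). The list's median was 0.03 against 0.05 for all genes.

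Of 40 mitosis genes tested, 9 fell (Ccnb1, Cdk1, Cdc20, Mad2l1, Cenpe, Kif23, Prc1, Tpx2 and Kpna2) and none rose, with a median log2 change of -0.52, against 2.95% of all genes that fell; 6 fell without morula pair 3. Cdk1, the mitotic kinase, read 577, 565 and 402 CPM in the morula pairs and 197, 197 and 191 in the blastocyst pairs (log2 change -1.4001 ± 0.26, SE; adjusted p = 0.00228). Ccnb1, its cyclin, read 888, 1121 and 2439 CPM in morulae and 677, 628 and 484 CPM in blastocysts (log2 change -1.31 ± 0.27, SE; adjusted p = 0.00511). The blastocyst pairs were nearly equal for Cdk1, whereas Ccnb1 was highest in morula pair 3. Of 52 genes of DNA replication and entry into S phase, Ccne2, Ccne1 and Cdc6 fell and none rose (5.77%, against 2.95% of all genes that fell). Ccne2, cyclin E2, read 98.0, 78.7 and 59.8 CPM in morulae and 10.8, 16.2 and 11.3 CPM in blastocysts (log2 change -2.63 ± 0.60, SE; adjusted p = 0.0115), and the calls of Ccne1 and Cdc6 ended without morula pair 3. The inhibitor Cdkn1b read 4.94, 6.01 and 3.32 CPM in morulae and 6.99, 21.7 and 19.9 CPM in blastocysts and did not pass (adjusted p = 0.383).

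Of 44 chromatin regulators tested, 7 fell (among them Smarca5, Kdm5b, Ezh2, Ctcf, Chd1 and Eed) and none rose, against 2.95% of all genes that fell, and 4 fell without morula pair 3. Smarca5, the ISWI remodelling ATPase, read 891, 657 and 671 CPM in the morula pairs and 156, 209 and 154 in the blastocyst pairs (log2 change -2.10 ± 0.19, SE; adjusted p = 1.64e-06). Ezh2, the H3K27 methyltransferase of Polycomb complex PRC2, read 218, 214 and 183 CPM in morulae and 83.2, 63.6 and 74.9 CPM in blastocysts (log2 change -1.47 ± 0.21, SE; adjusted p = 0.000313). Eed, its partner, read 327, 299 and 379 CPM in morulae and 178, 201 and 164 CPM in blastocysts (log2 change -0.89 ± 0.22, SE; adjusted p = 0.0214). In all 3 the stages were separate in every pair, as in nearly all called genes. The DNA methylation genes Dnmt3b and Dnmt3l did not pass the test (adjusted p = 0.767 and 0.908).

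**Figure D4:**
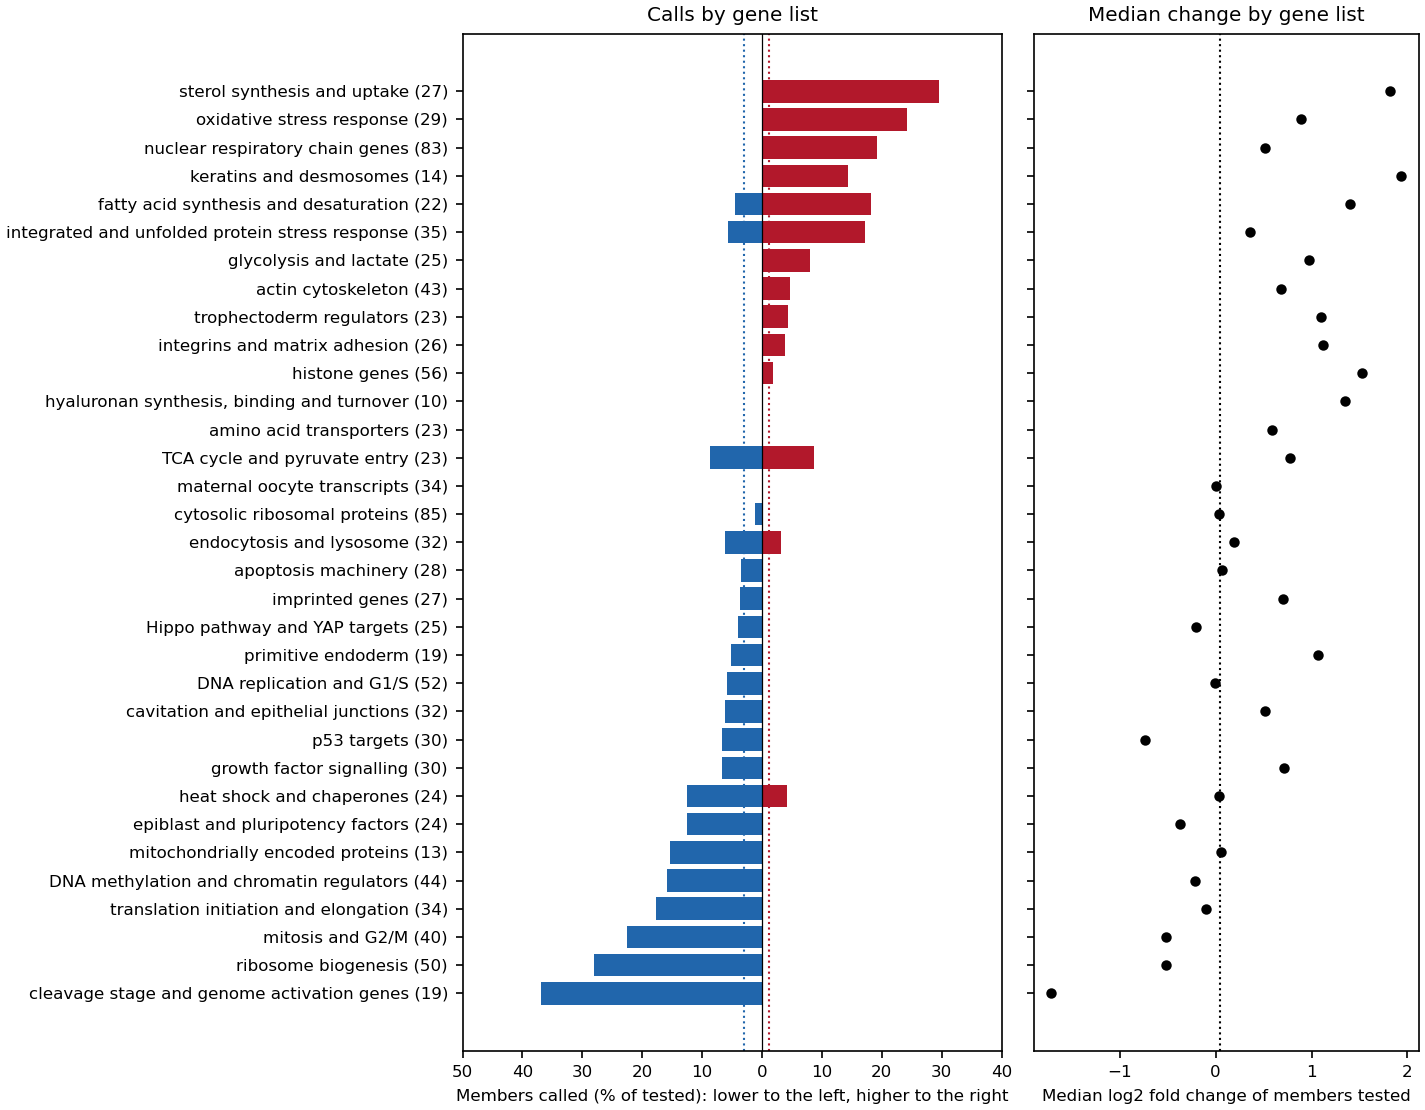
Left, the percent of tested members of each gene list called higher (red, to the right) or lower (blue, to the left) in split blastocysts, with the number tested in brackets and dotted lines at the shares of all genes (1.22% and 2.95%); right, the list's median log2 change, with a dotted line at the median of all genes. Sterol synthesis has the largest share of rises (8 of 27) and the cleavage list the largest share of falls (7 of 19).

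The labelled stages were checked against 24 lineage and stage genes, of which Krt18 rose and Obox6 fell by edgeR's test and the other 22 did not pass. Krt18, a trophectoderm keratin, read 872, 318 and 218 CPM in the morula pairs and 2693, 1923 and 3193 in the blastocyst pairs (log2 change 2.47 ± 0.63, SE; adjusted p = 0.0348), and the call ended when any of 5 of the 6 pairs was left out, the exception being morula pair 1. Its partner Krt8 read 655, 496 and 158 CPM in morulae and 1772, 1621 and 1905 CPM in blastocysts (log2 change 2.02 ± 1.14, adjusted p = 0.346), without overlap. Dsc2, a desmosomal cadherin, had no count in any split morula and read 7.30, 22.7 and 16.4 CPM in the blastocyst pairs (adjusted p = 0.00425), at least 182-fold higher against a floor of 3 counts per pair sum (0.0851 CPM). It read 3.23 ± 4.24 CPM (SD) in intact morulae. Krt18 and Dsc2 were the 2 calls among 14 keratin and desmosome genes tested (14.3%, against 1.22% of all genes that rose). The list's median log2 change was 1.94, and 1 of 15 was called without morula pair 3.

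Among 23 trophectoderm regulators tested 1 was called, which is 4.35%, near the 4.17% of all genes. The median log2 change was 1.10. Gata2 read 0, 0.0275 and 1.44 CPM in the morula pairs and 20.3, 14.6 and 27.0 in the blastocyst pairs (log2 change 5.39 ± 1.5005, SE; adjusted p = 0.0497), and its call ended when any pair other than morula pair 3 was left out. Gata3 read 402, 521 and 108 CPM in morulae and 652, 979.9 and 785 CPM in blastocysts without overlap (log2 change 1.23 ± 0.56, adjusted p = 0.230). The sisters of morula pair 3 read 194 and 22.4 CPM of Gata3 where the other 4 morulae had 293 to 549. Cdx2, a factor needed for trophectoderm, read 24.6, 15.4 and 0 CPM in morulae and 20.2, 29.4 and 22.7 in blastocysts (adjusted p = 0.872). Morula pair 1 thus lay within the blastocyst range, pair 2 below it, and pair 3 had no count. Eomes read 1.44, 1.98 and 4.32 CPM in morulae and 24.9, 30.6 and 33.2 CPM in blastocysts, higher in every blastocyst pair but not called (log2 change 3.52 ± 1.404, adjusted p = 0.176). Neither Tfap2c (adjusted p = 0.246) nor the YAP partner Tead4 (adjusted p = 0.226) passed.

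Of 24 epiblast and pluripotency genes, 3 fell (Sox15, Sall4 and Dppa4) and none rose, against 2.95% of all genes that fell, with a median log2 change of -0.37. Sall4, a zinc finger factor of the inner cell mass, read 1792, 1182 and 635 CPM in the morula pairs and 452, 745 and 436 in the blastocyst pairs (log2 change -1.14 ± 0.26, SE; adjusted p = 0.0115), with 1 morula pair inside the blastocyst range. Dppa4 read 545, 406 and 552 CPM in morulae and 288, 308 and 237 CPM in blastocysts (log2 change -0.85 ± 0.18, SE; adjusted p = 0.00698). Nanog, a core epiblast factor, read 345, 378 and 22.5 CPM in morulae and 197, 261 and 156 CPM in blastocysts (adjusted p = 0.908), and the 2 embryos of morula pair 3 had 11.5 and 33.1 CPM where the lowest of the other split embryos had 124.6. Pou5f1, encoding Oct4, read 64.3, 69.0 and 41.7 CPM in morulae and 41.9, 66.3 and 70.8 CPM in blastocysts, a log2 change of 0.03 ± 0.72. Sox2 read 3.31, 2.44 and 0 CPM in morulae and 10.7, 6.37 and 18.2 CPM in blastocysts (adjusted p = 0.269). Of 19 primitive endoderm genes only Cited1 was called (5.26%, near the 4.17% of all genes), and it fell by 1.23 on the log2 scale (SE 0.27, adjusted p = 0.00838). The Cited1 call ended without morula pair 3, which left none. Gata6, which marks the precursors, read 135, 128 and 90.0 CPM in morulae and 63.4, 85.6 and 67.2 CPM in blastocysts (adjusted p = 0.364). The markers Gata4 and Sox17 had no count in any split morula and were low in blastocysts, at 0.894, 0 and 1.43 and 0, 2.31 and 3.15 CPM, and were not called. Gata4 read 22.2 to 40.5 CPM in intact 8-cell embryos, above every split blastocyst. Pdgfra read 0, 1.65 and 3.67 CPM in morulae and 7.52, 15.4 and 22.0 CPM in blastocysts (adjusted p = 0.433).

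Per length, in TPM from the authors' table, which divides counts by transcript length, the order of these genes in split blastocysts ran from Dppa3 (16401), Krt18 (4723) and Krt8 (2339) through Gata3 (530.4) and Nanog (236) to Pou5f1 (68.6), Cdx2 (27.7) and Sox2 (14.9), each a mean over 6 embryos. Dppa3, a maternal and germ cell factor also called Stella, read 7594, 7962 and 10519 CPM in the morula pairs and 6246, 6305 and 4163 in the blastocyst pairs and missed the threshold (log2 change -0.64 ± 0.19, adjusted p = 0.0610).

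Genes of the blastocoel epithelium showed 2 falls and no rise among 32 tested (Atp1b3 and Aqp9, at log2 changes of -0.89 ± 0.25 and -1.28 ± 0.33), with a median of 0.51, against 2.95% of all genes that fell. Both calls ended without morula pair 3 (adjusted p = 0.188 and 0.0725), which left no call in the list. Aqp9, a channel for water and glycerol, read 108, 92.1 and 106 CPM in the morula pairs and 44.8, 44.2 and 37.1 in the blastocyst pairs. Aqp3 read 226, 159 and 79.4 CPM in morulae and 150.3, 148 and 136 CPM in blastocysts (adjusted p = 0.987), and the sodium pump subunit Atp1b1 85.2, 25.6 and 13.7 CPM in morulae and 107, 63.7 and 84.7 CPM in blastocysts (adjusted p = 0.616). Cdh1, encoding E-cadherin, read 110.1, 45.2 and 50.4 CPM in morulae and 116, 82.5 and 114 CPM in blastocysts (adjusted p = 0.498). None of these 3 separated the stages.

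Among 30 growth factor genes Igf2r and Socs3 fell and none rose, which is 6.67% of the list against 2.95% of all genes that fell. Igf2r, an imprinted receptor that carries IGF2 to the lysosome, read 1494, 1260 and 1077 CPM in the morula pairs and 398, 346 and 217 in the blastocyst pairs (log2 change -1.99 ± 0.31, SE; adjusted p = 0.000502). It was also the 1 call among 27 imprinted genes (3.7%, near the 4.17% of all genes). The antisense RNA Airn overlaps it, and whether counting used strand is not given, so reads of the pair cannot be told apart. Socs3, a feedback inhibitor of JAK-STAT signalling, read 3.95, 8.59 and 32.5 CPM in morulae and 0.0967, 0 and 0.0205 in blastocysts (adjusted p = 0.00510), levels near the floor. S100a11, a calcium-binding protein, was the 1 call among 26 integrin and adhesion genes (3.85%, near the 4.17% of all genes). It read 40.8, 70.9 and 50.3 CPM in morulae and 227, 251 and 160.2 CPM in blastocysts (log2 change 1.98 ± 0.47, SE; adjusted p = 0.0152). Its call ended without morula pair 3 (adjusted p = 0.0738), which left none in that list. In the lysosome list of 32, Hexa rose and Ctsc and Ctsz fell (9.38% called, against 4.17% of all genes). The calls of Hexa and Ctsz ended without morula pair 3, where the list had 1 rise and 1 fall. Ctsc, cathepsin C, read 1139, 1592 and 1726 CPM in morulae and 477, 598 and 477 CPM in blastocysts (log2 change -1.52 ± 0.23, SE; adjusted p = 0.000399). Arpc2 and Tmsb10 rose among 43 actin genes, H2ac8 among 56 histone genes, and Taok1, a kinase upstream of Hippo signalling, fell among 25 genes of that pathway. All 4 calls ended without morula pair 3 (adjusted p = 0.0938, 0.0840, 0.145 and 0.0553), and none was then left in these 3 lists. With all pairs the share called was 4.65% of the actin, 1.79% of the histone and 4% of the Hippo list, against 4.17% of all genes, so these counts are near the background. No member of the maternal oocyte list (34 tested), the amino acid transporters (23) or the hyaluronan list (10) was called by edgeR. At an unadjusted p under 0.05 there were 11, 4 and 2, and DESeq2 called 7, 0 and 2.

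The same transition in intact embryos, tested in the same fit on other embryos, called 496 of the 15875 genes higher and 1184 lower. Of the 662 genes called in split embryos, 342 (51.7%) were also called in the same direction in intact embryos, which is 20.4% of the intact calls, and 4 were called in the opposite direction. Of the 194 rises, 58 were also called higher in intact embryos, and of the 468 falls 284 were also called lower. The 2 counts have unlike backgrounds, since 496 of the 15875 genes were called higher in intact embryos and 1184 lower. Whether rises and falls were shared alike was not tested. The fitted log2 change had the same sign in intact embryos for 598 of the 662. Called in one group and not in the other is no test of a difference. The difference between the changes was itself called for 260 genes (1.64%), 218 more positive and 42 more negative in split embryos, with 2272 at an unadjusted p under 0.05. Of the 218, 165 were genes that fell in intact embryos and were not called in split ones, and 31 rose in split embryos. Without 1 of the 6 blastocyst units, split pairs or intact embryos, 97 to 150 genes were more positive and 11 to 27 more negative, and without morula pair 3 the counts were 164 and 27. On log2(TPM + 1) limma called 45 more positive and 69 more negative, of which 62 in all were among the 260.

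A more positive change in split embryos was called for 1.37% of all genes and a more negative one for 0.265%. Of the gene lists, the cytosolic ribosomal proteins held the most of the former, 12 of 85. In intact embryos 38 of these 85 fell and none rose, with a median log2 change of -0.52, whereas their median in split embryos was 0.03. Further such counts were 6 of 83 respiratory chain genes, 6 of 34 translation factors, 5 of 52 genes of DNA replication, 4 of 29 of oxidative stress, 3 of 32 lysosomal genes and 3 of 27 sterol genes. Without morula pair 3 they were 6 ribosomal, 6 respiratory, 7 translation, 3 replication, 3 oxidative stress, 4 lysosomal and 2 sterol genes. Leaving out any one unit left 4 to 11 ribosomal proteins, with 4 without split blastocyst pair 1 or 3 or intact blastocyst 1, and limma on log2(TPM + 1) called 1. A more negative change was called for 3 of 40 mitosis genes and 3 of 44 chromatin regulators, against 0.265% of all genes, and a more positive one for 0 of either list. The translation, heat shock, blastocoel epithelium and Hippo lists held 1 more negative call each. How these counts moved in the alternatives is not reported here.

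The 3 sterol genes were Idi1, Ebp and Fdft1. Idi1 read 34.4 ± 11.04 CPM (SD, n = 5) in intact morulae and 26.3 ± 10.9 (SD, n = 3) in intact blastocysts. Its change was thus 3.01 ± 0.60 more positive in split embryos on the log2 scale (adjusted p = 0.0109), without overlap between split and intact blastocysts. Ebp and Fdft1 differed by 2.63 ± 0.59 and 2.34 ± 0.46 (adjusted p = 0.0254 and 0.00953), while for Lss, Cyp51, Pmvk, Msmo1 and Sqle the difference did not pass. Txn1, Sod2 and Gpx4, which rose in split embryos, read 442 ± 50.8, 781 ± 93.1 and 266 ± 48.8 CPM in intact morulae and 430.2 ± 47.2, 666 ± 74.3 and 233 ± 79.0 in intact blastocysts. Their differences were 1.49 ± 0.29, 1.505 ± 0.30 and 1.43 ± 0.32 (adjusted p = 0.0107, 0.0114 and 0.0236). Cyc1 differed by 1.29 ± 0.27 (adjusted p = 0.0167). Exosc9, a subunit of the RNA exosome, had a log2 change of -0.29 in split and -2.81 in intact embryos (difference 2.52 ± 0.41, adjusted p = 0.00358). Ctsc and Dppa3 read higher in split than in intact blastocysts, 518 ± 70.0 against 175 ± 65.7 CPM and 5572 ± 1220 against 3175 ± 592 CPM, and their log2 changes were less negative in split embryos by 1.80 ± 0.31 and 1.22 ± 0.26 (adjusted p = 0.00490 and 0.0155).

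In the other direction, Pdpn, podoplanin, read 47.9, 29.6 and 56.4 CPM in the split morula pairs and 72.9, 70.7 and 122 in the split blastocyst pairs, against 24.4 ± 17.5 in intact morulae and 479.5 ± 101 in intact blastocysts (difference -3.31 ± 0.81, adjusted p = 0.0472). Sister morulae were uneven for Pdpn, at 63.2 and 27.7 CPM in pair 1, 54.5 and 2.71 in pair 2, and 113 and 0.0581 in pair 3. Resf1, a regulator of retroelement silencing, read 258, 263 and 573 CPM in morulae and 72.4, 47.4 and 88.0 CPM in blastocysts in split embryos and 198 ± 42.1 and 195 ± 25.9 in intact ones (difference -2.37 ± 0.39, adjusted p = 0.00412). Hsph1, a heat shock protein, fell in split embryos, where its log2 change was -1.13 against 0.70 in intact ones (difference -1.84 ± 0.39, adjusted p = 0.0167). Of the calls of a difference named here, those for Resf1 and Exosc9 held in all 27 alternatives. The call ended in 19 for Pdpn, 11 for Ebp, 8 each for Gpx4 and Cyc1, 6 for Dppa3, 4 for Hsph1, 3 for Txn1, and 2 each for Idi1, Fdft1, Sod2 and Ctsc. That for Ebp ended without any one of the 3 split morula pairs, and those for Ebp, Gpx4 and Cyc1 without split blastocyst pair 1 or 3 or intact blastocyst 1 or 2. Gpx4 also lost it without morula pair 3, Dppa3 without split blastocyst pair 1 or intact blastocyst 1, and Hsph1 without morula pair 1, split blastocyst pair 1 or intact blastocyst 2. Pdpn kept it when intact morula 4 was left out and lost it without any other single unit of the 4 groups.

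Transcript length moved with the difference. With length measured relative to the median gene, from counts over TPM, genes called more positive in split embryos had a median of 0.731 and those called more negative 2.07, against 0.933 for all. In split embryos the called rises had a median of 0.708 and the falls 1.11. In intact embryos the order was opposite, at 1.45 and 0.800. When a length trend per library was taken out, an alternative added after the data were seen, the difference was called for 80 genes, 66 of them among the 260, while the split transition kept 170 of its 194 rises and 452 of its 468 falls. Of the 12 cytosolic ribosomal proteins only 1 was then called, Rps3, and of the further lists named above for more positive changes 1 respiratory, 3 translation, 2 replication, 1 oxidative stress, 1 lysosomal and 2 sterol genes. Of the genes above, the differences of Ebp, Txn1, Gpx4, Cyc1, Dppa3 and Hsph1 were not called after that step, and those of Idi1, Fdft1, Pdpn, Sod2, Ctsc, Exosc9 and Resf1 were.

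**Figure D5:**
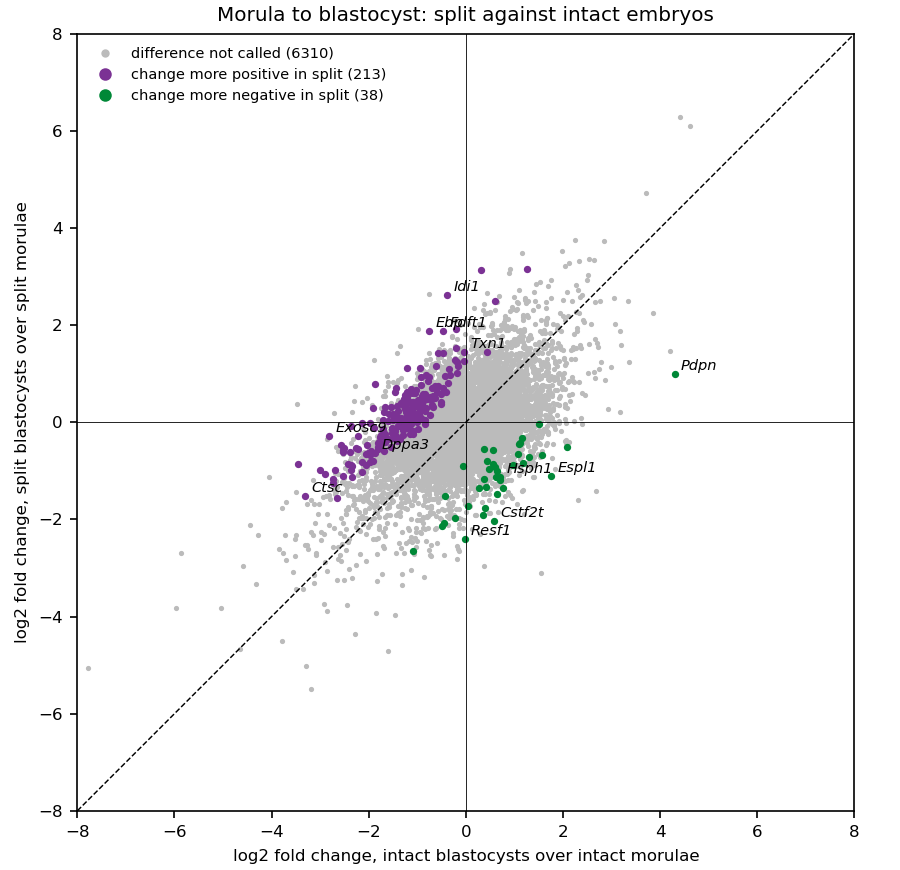
Log2 change from morula to blastocyst in split (vertical axis) against intact embryos (horizontal axis) for 6561 genes whose log2 CPM averaged 3 or more (1 lies outside the axes); the dashed line marks equal change. Purple points are genes whose change was more positive in split embryos and green points those more negative, with Idi1, Ebp and Fdft1 above the line and Pdpn and Resf1 below it.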

How the data were processed

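Smart-seq2 libraries of 24 single mouse embryos were analysed. The authors deposited a table of raw read counts for 37229 genes and a filtered table of TPM for 15625. The submitters' processing notes name FastQC, MultiQC, cutadapt, HISAT2, featureCounts, edgeR and build GRCm39. Versions, the annotation release, strand setting and treatment of shared reads are not given in the sources used here, and no molecular identifiers were used.

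From the deposited counts, sisters were summed, giving 18 units in 5 groups (4 intact 8-cell, 5 intact morula and 3 intact blastocyst embryos, 3 split morula and 3 split blastocyst pairs). Genes were kept by filterByExpr (15875), scaled by TMM and fitted with edgeR 4.0.16 (glmQLFit, robust, and glmQLFTest, two-sided, in R 4.3.3). Calls are at a Benjamini-Hochberg adjusted p under 0.05 over all genes kept, with no minimum fold. The SE of a log2 change is its size over the square root of F. Depth was 13439059 to 25228658 counts per split embryo, and 3 counts in a pair sum correspond to 0.0851 CPM. Embryo CPM use TMM over embryos. The labels give each pair its own 2-cell embryo but no parents or fertilization batch, and p-values rest on the spread between these libraries alone.

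Alternatives used DESeq2 1.42.0, limma 3.58.1 (on log2(TPM + 1) and voom), other scalings, filters and sister treatments, and each pair left out. Named genes were the 12 largest changes in each direction among called genes without overlap (average log2 CPM of 3 or more, named symbol), a panel of 24 lineage and stage genes, up to 4 called members of each list with the largest changes, and up to 6 per direction of the difference. A few genes the rule picks are not reported here. Further list members were named after their values were seen. The members, panel, lists and promoter motifs were chosen with earlier results of these data known. Figures were drawn with matplotlib 3.10.9.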

Additional observations from a re-analysis of the deposited data

Results flagged for a closer look

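Single embryos stood apart from the other 5 of their stage in 2 of 62 tests of depth, gene number, mitochondrial share, marker sums and 23 leading genes, by a gap to the nearest embryo larger than Dixon's 95% critical value for 6 samples. Chance alone gives about 1 in 20 such tests, and sisters are not independent. Blastomere 1 of blastocyst pair 3 had the highest Scd1 level of the split blastocysts, at 564 CPM. Blastomere 1 of blastocyst pair 2 stood apart for Zfp951, at 17.9 CPM.

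For 20 of the named genes the change from morula to blastocyst differed between split and intact embryos by the test of the difference itself (edgeR, adjusted p under 0.05). On the log2 scale it was more positive in split embryos for Dbi (1.90), Dppa3 (1.22), Ctsc (1.80), Cyc1 (1.29), Idi1 (3.01), Txn1 (1.49), Sod2 (1.505), Gpx4 (1.43), Ebp (2.63), Exosc9 (2.52) and Fdft1 (2.34). It was more negative for Taok1 (-1.62), Eif3a (-0.85), Hsph1 (-1.84), Pdpn (-3.31), Espl1 (-2.86), Cstf2t (-2.62), Ankhd1 (-2.58), Resf1 (-2.37) and Etaa1 (-2.28). Of these calls, 18 ended under at least 1 alternative, and those of Exosc9 and Resf1 held in all 27.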

How the results depend on the processing

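Against 194 genes higher and 468 lower in split blastocysts, the counts were 801 and 896 with DESeq2 and 1117 and 1088 with every embryo as its own sample, which treats sisters as independent. They were 2125 and 778 with limma-voom, 301 and 445 with blastomere 1 alone, 859 and 521 with limma on log2(TPM + 1), and 198 and 215 with only the split pairs in the fit. Leaving out 1 pair gave 71 to 179 higher and 220 to 453 lower. For the difference between split and intact changes (218 more positive and 42 more negative in split embryos) the counts were 584 and 290 with DESeq2, 45 and 69 with log2(TPM + 1), 65 and 15 with the length trend removed, 103 and 29 with blastomere 1, 315 and 77 with only the 4 compared groups, 283 and 108 with single embryos, and 231 and 71 with a stricter filter. Leaving out 1 unit gave 97 to 181 and 11 to 51. For the intact transition (1680 genes) DESeq2 gave 2572 and log2(TPM + 1) 3520, and leaving out 1 embryo gave 1083 to 1524. The cause of these shifts was not tested.

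With the pair number as a replicate block, only the split pairs in the fit, 31 genes were higher and 34 lower, and 21 of the 101 named calls remained. Pairs of equal number come from different 2-cell embryos, and the numbers were taken as names only. For equal numbers 1, 2 and 3 the deviations from the stage means correlated at 0.0768, 0.0153 and 0.0459. Unequal numbers gave -0.0701 to 0.0186. Numbers 1 and 3 thus had the highest values, while morula pair 2 correlated better with blastocyst pair 1 (0.0175) than with its own number. Whether pairs of equal number share anything further was not tested. Other counts stayed within 1.5 times. Over all alternatives, none of the 101 named calls reversed, and the direction of the other called genes was not followed. Genes picked as called, most of them without overlap, could hardly reverse when a pair was left out. Among values of named genes for the change in split embryos, 2163 kept side and direction and 340 lost the call. Another 28 gained one, and 23 of genes not called changed sign. The sister distances kept their direction and joint p with well expressed genes alone (-0.0383) and with Spearman's rho (-0.0171), against -0.0175.

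Genes that read near 0 in morulae have fitted changes set by few counts.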
